A study of Mus musculus with 10 samples.

Results

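The genes described here are the metabotropic glutamate receptors that were followed as a set: Grm2, Grm3, Grm4, Grm5, Grm7 and Grm8, which encode mGluR2, mGluR3, mGluR4, mGluR5, mGluR7 and mGluR8. They were taken by gene symbol from the GENCODE M21 mouse annotation and are 6 of the 53447 genes listed in each library. All 6 were found, and 4 of them (Grm2, Grm3, Grm4 and Grm7) passed the filter on low values, which asked for at least 0.5 TPM (a level scaled for transcript length and library size) in at least 5 libraries. Grm5 and Grm8 did not pass, and their values are given as levels with an exact permutation test.

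RNA of the whole cerebellum was sequenced from mice that lack the neuronal adhesion molecule DSCAM and from control mice, with 5 libraries from 5 DscamKO mice and 5 libraries from 5 Control mice. DscamKO mice were homozygous for Dscam del17, a spontaneous loss-of-function deletion inside the gene that is carried in every cell of the body, so no cell type was singled out by the mutation. Control mice were wild-type littermates, and mice of either sex entered the study. The labels give the strain of all mice as BALB/c, the mutant line having been crossed to BALB/cCrSlc mice, and tissue was taken at postnatal day 21 (P21).

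Metabotropic glutamate receptors are G protein-coupled receptors that respond slowly to synaptic glutamate and fall into 3 groups. Group I receptors couple to Gq and phospholipase C and sit mostly after the synapse, while groups II and III couple to Gi/o, lower cyclic AMP and often act as brakes on transmitter release. In the cerebellar cortex mGluR4 sits on the parallel fibre terminals of granule cells, mGluR2 is known from Golgi cells and unipolar brush cells, and mGluR3 from glia and Golgi cells.

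Dscam itself was read first as a check of the labels. Its level was 5.11, 5.42, 4.53, 3.73 and 3.05 TPM in DscamKO libraries 1 to 5, against 8.04, 8.43, 6.79, 9.05 and 6.29 TPM in Control libraries 1 to 5. The groups did not overlap and every library matched its label, although the mutant transcript was still read at more than a trace (log2 fold change -0.82, limma adjusted p = 0.779, two-sided exact permutation p = 0.0079, the smallest that 5 against 5 allows). Across the 17168 genes tested with limma, 0 passed an adjusted p of 0.05 (0%), 953 had an unadjusted p under 0.05 (5.55%), and 209 had groups that did not overlap (1.22%).

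The libraries listed 17130 to 17539 genes at 0.5 TPM or more in DscamKO, against 15623 to 17763 in Control. The fewest, 15623, were in Control library 5. The listed TPM values did not sum to an equal total, and this library also had the smallest sum (684771 TPM, others 757307 to 838532 TPM). Control libraries 3 and 5 stood apart by their mitochondrially encoded mRNA, with 23124 and 15206 TPM over 13 genes. The other Control libraries had 32199 to 44670 TPM and DscamKO libraries had 34717 to 44973 TPM. Marker genes of the cerebellum were abundant in every library, with 6 granule cell markers summing to 1770 to 2245 TPM in DscamKO and 1793 to 2556 TPM in Control. Markers of brainstem, midbrain and cerebellar nuclei neurons were low but not equal between the groups: the 6 genes summed to 8.23 to 20.4 TPM in DscamKO and 3.21 to 10.7 TPM in Control. Of these 6, the 4 tested were all higher on average in DscamKO, 3 of them with an unadjusted p under 0.05 (beside 2.29% of all genes that were higher at this level), and Slc6a4 and Chat were listed at 0 in most libraries.

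The levels of the receptors spread over about 3 orders of magnitude. Grm4 was the most abundant of the 6 receptors in all 10 libraries, with a mean of 338.9 TPM. Grm2 (10.1 TPM), Grm3 (8.24 TPM) and Grm7 (5.80 TPM) formed a middle tier, and Grm5 (0.358 TPM) and Grm8 (0.298 TPM) lay near the lower limit of what was read. Grm6, the receptor of retinal ON bipolar cells, was listed at 0 in 9 libraries and at 0.101 TPM in DscamKO library 1. Neighbours in this order were not always distinct: Grm2 was above Grm3 in 7 of 10 libraries, Grm3 above Grm7 in 9 of 10, and Grm5 above Grm8 in only 3 of 10, so that the place of Grm5 before Grm8 rests on its mean alone. Grm7 was above Grm5 in 10 of 10 libraries although their ranges overlapped, and the other neighbours did not overlap.

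**Figure D1:**
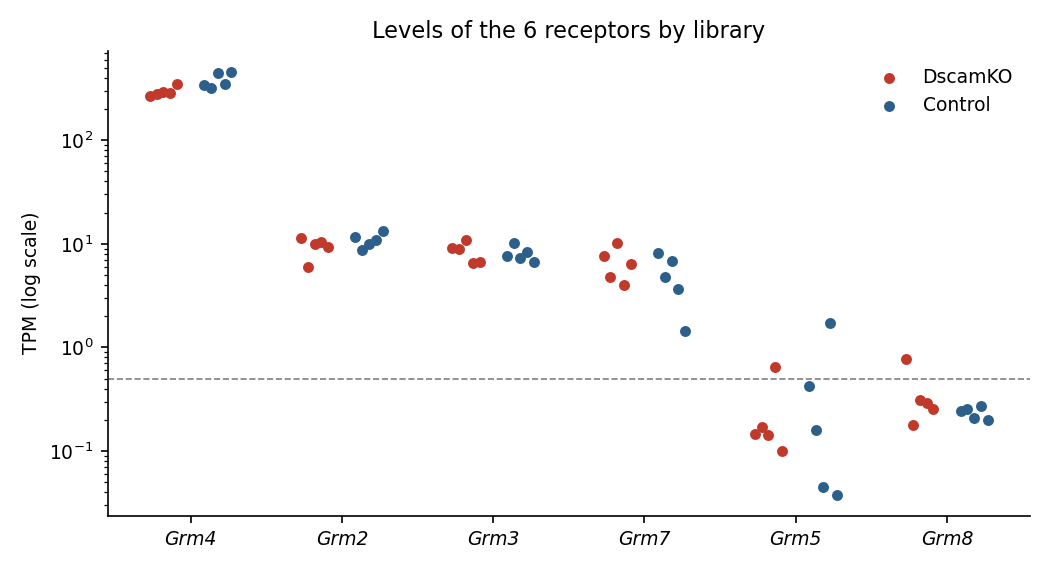
Levels of the 6 receptors in each library, in TPM on a log axis, with DscamKO libraries in red at the left of each pair and Control libraries in blue; the dashed line marks the filter at 0.5 TPM, and Grm6 is left out because it was listed at 0 in 9 libraries. Grm4 lies above the other 5 receptors in every library, and Grm5 and Grm8 lie mostly under the line.

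Grm4 accounted for 90.1 to 93.9% of the summed level of the 6 receptors in DscamKO and for 92.5 to 95.5% in Control. The set as a whole is therefore close to a readout of Grm4, and each of the other genes was described on its own scale.

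Group I is represented here by Grm5 (chr7:87584168-88134907, plus strand, GRCm38), which encodes mGluR5, a postsynaptic receptor that is prominent in the forebrain. Its level was 0.146, 0.172, 0.142, 0.647 and 0.0992 TPM in DscamKO libraries 1 to 5, against 0.426, 0.160, 0.0445, 1.70 and 0.0380 TPM in Control libraries 1 to 5. One library in each group was high, DscamKO 4 and Control 4, and the groups overlapped over most of their range. Only those 2 libraries reached 0.5 TPM. The difference of the mean log2(TPM + 0.1) values was -0.21 (two-sided exact permutation p = 0.810), and it was 0.39 without Control library 4.

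**Figure D2:**
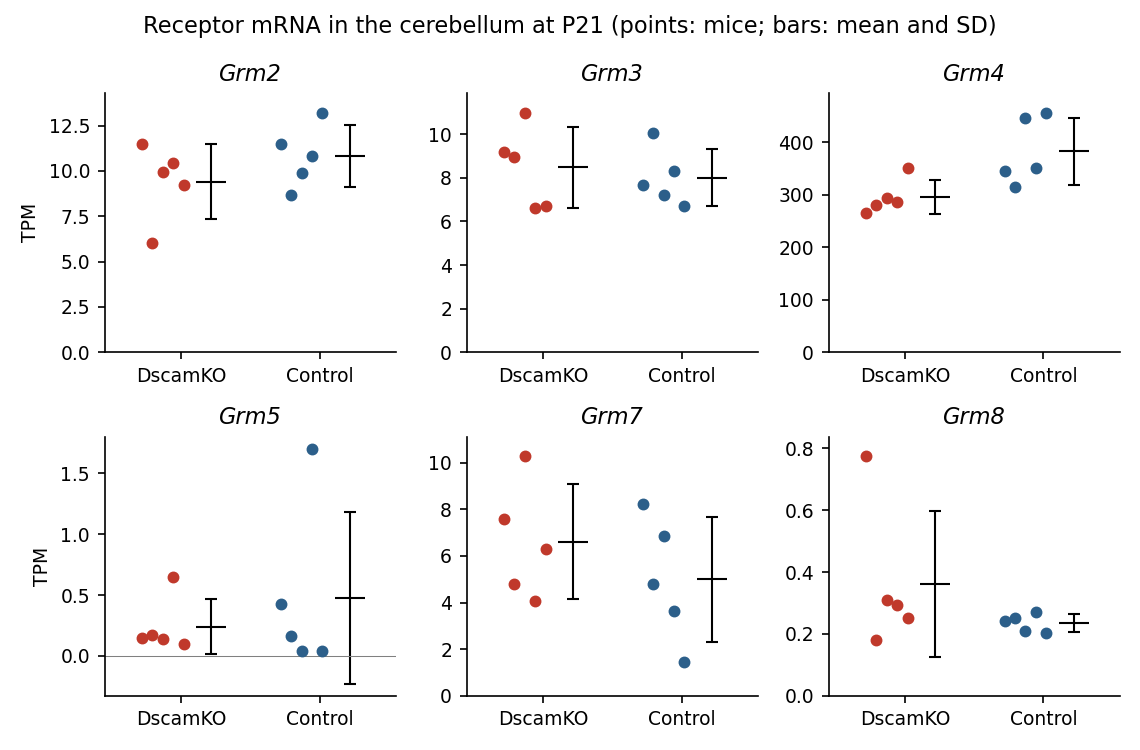
Level of each of the 6 receptors in TPM by mouse, with a linear axis for each gene, DscamKO in red at the left and Control in blue at the right, and the mean with 1 SD in black beside the points (n = 5 each). The groups overlap for every gene, with Grm4 closest to separation: 4 of 5 DscamKO libraries lie under all Control libraries.

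Group II consists of Grm2 and Grm3. Grm2 (chr9:106643095-106656082, minus strand) encodes the Gi/o-coupled mGluR2, through which Golgi cells respond to glutamate from parallel fibres. Its level was 11.5, 6.004, 9.95, 10.4 and 9.23 TPM in DscamKO libraries 1 to 5, against 11.5, 8.69, 9.86, 10.8 and 13.2 TPM in Control libraries 1 to 5. DscamKO library 2 was the lowest of all and Control library 5 the highest, and the other 8 libraries lay between them with the groups mixed. Means were 9.41 ± 2.07 TPM in DscamKO and 10.8 ± 1.71 TPM in Control (SD, n = 5 each). The log2 fold change was -0.22 (SE 0.21, 95% interval -0.68 to 0.24), with a limma adjusted p of 0.817. Without DscamKO library 2 it was -0.06, so that this library carried most of the difference. An antisense gene, Gm28111, shares 470 bases of exon with Grm2 and was listed at 0 in every library.

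The cells known for mGluR2 were read through their own markers. The 4 Golgi cell markers summed to 79.2 to 88.0 TPM in DscamKO and 53.2 to 90.3 TPM in Control, all 4 with log2 fold changes above 0 (median 0.31). The 4 unipolar brush cell markers summed to 498.9 to 756.8 TPM in DscamKO and 373.8 to 667.8 TPM in Control, again with 4 of 4 above 0 (median 0.24). Most of this sum was Calb2, at 440.8 to 676.6 TPM in DscamKO and 338.0 to 588.3 TPM in Control. The sum therefore mainly follows this gene, and the part of other cells in the Calb2 level was not tested. None of these 8 genes was at 0 in all libraries, and 1 of them, Lgi2, was higher at an unadjusted p under 0.05, beside 2.29% of all genes. The medians of both lists were lower without Control libraries 3 and 5, and so was the median of all genes (0.05 with all libraries). Without both, 3 of 4 Golgi cell markers (median 0.11) and 2 of 4 unipolar brush cell markers (median -0.03) were above 0. The median of all genes was -0.09 there. With mitochondrial mRNA as a covariate these were 2 of 4 (median 0.08) and 0 of 4 (median -0.13), where the median of all genes was -0.11. Grm2 was at -0.16 in both settings. The part of these cells in the Grm2 value was not tested. In whole tissue, fewer cells of a type and less RNA per cell cannot be told apart.

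Grm3 (chr5:9485541-9725170, minus strand) encodes mGluR3, a Gi/o-coupled receptor of astrocytes and some neurons that is also activated by N-acetylaspartylglutamate (NAAG). Its level was 9.19, 8.98, 10.99, 6.59 and 6.70 TPM in DscamKO libraries 1 to 5, against 7.69, 10.1, 7.21, 8.32 and 6.69 TPM in Control libraries 1 to 5. The lowest and the highest library were both DscamKO, and the Control range lay inside the DscamKO range. Means were 8.49 ± 1.86 TPM in DscamKO and 7.999 ± 1.31 TPM in Control (SD, n = 5 each), with a log2 fold change of 0.07 (SE 0.21, 95% interval -0.38 to 0.53) and a limma adjusted p of 0.938. The sign turned without DscamKO library 3 (-0.03), without Control libraries 3 and 5 together (-0.05), with mitochondrial mRNA as a covariate (-0.05) and under quantile normalization (-0.02), so no direction is given for Grm3. The 6 Bergmann glia and astrocyte markers summed to 788.0 to 840.5 TPM in DscamKO and 649.6 to 969.5 TPM in Control, 3 above and 3 below 0 with a median log2 fold change of 0.01, and none was at 0 in all libraries. Of these markers, 1 was lower at an unadjusted p under 0.05, beside 3.26% of all genes, and 0 were higher. This marker, Hopx, averaged 94.6 TPM in DscamKO and 132.0 TPM in Control (log2 fold change -0.48, two-sided exact permutation p = 0.0159). Its groups overlapped, and its limma adjusted p was 0.779. Without Control libraries 3 and 5 all 6 glial markers were below 0 (median -0.17), where the median of all genes was -0.09.

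The summed level of group II was 15.0 to 20.9 TPM in DscamKO and 17.1 to 19.9 TPM in Control. The Control libraries were closer to each other in this sum (SD 1.06 TPM) than the DscamKO libraries (SD 2.74 TPM). Grm2 exceeded Grm3 in 3 of 5 DscamKO and 4 of 5 Control libraries, with a ratio of Grm2 over Grm3 of 0.669 to 1.58 in DscamKO and 0.863 to 1.97 in Control.

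Group III consists here of Grm4, Grm7 and Grm8, and Grm4 gave the clearest difference of the set. Grm4 (chr17:27422387-27521403, minus strand) encodes mGluR4, the autoreceptor through which glutamate restrains release from parallel fibres onto Purkinje cells. Its level was 265.5, 280.04, 294.5, 286.8 and 350.1 TPM in DscamKO libraries 1 to 5, against 344.2, 315.5, 445.7, 350.5 and 456.2 TPM in Control libraries 1 to 5. DscamKO libraries 1 to 4 were below every Control library, Control libraries 3, 4 and 5 were above every DscamKO library, and the groups overlapped through DscamKO library 5 alone. Means were 295.4 ± 32.4 TPM in DscamKO and 382.4 ± 64.1 TPM in Control (SD, n = 5 each).

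The log2 fold change of Grm4 was -0.36 (SE 0.12, 95% interval -0.63 to -0.10), a level in DscamKO that was 0.778 times that in Control. The unadjusted limma p was 0.0119 and the two-sided exact permutation p was 0.0238. After adjustment over all genes tested the limma p was 0.779, so Grm4 did not pass the threshold. At an unadjusted p under 0.05, Grm4 was 1 of 4 receptors tested, beside 3.26% of all genes that were lower and 2.29% that were higher in DscamKO at the same level. None of the 6 receptors had groups that did not overlap, beside 1.22% of all genes tested.

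**Figure D3:**
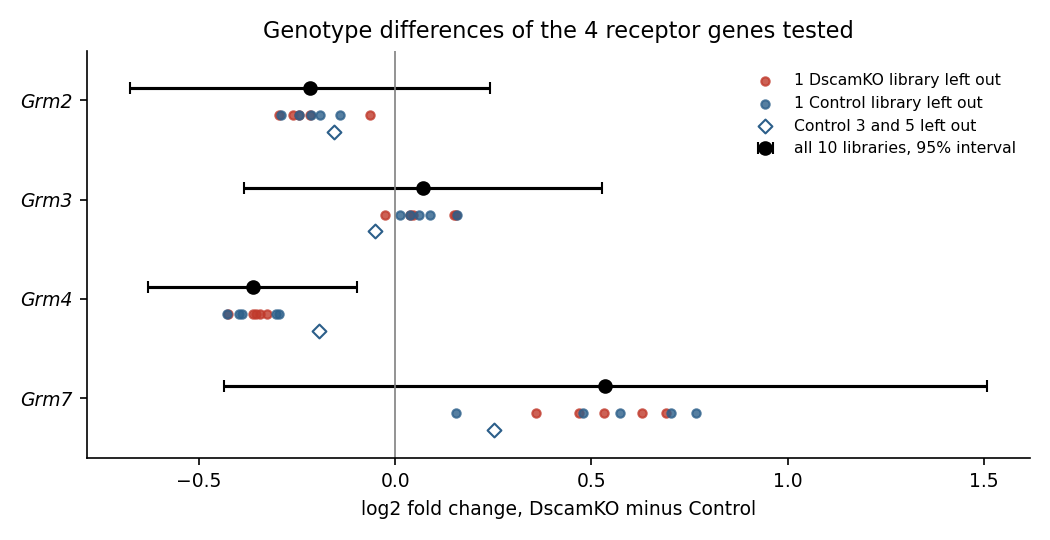
Log2 fold change of the 4 receptors tested, DscamKO minus Control, with the 95% interval over all 10 libraries in black, the value after leaving out each single library in red (DscamKO) or blue (Control), and the value without Control libraries 3 and 5 as an open diamond. Grm4 stays below 0 throughout at a smaller size without those 2 libraries, and Grm7 moves most with a single Control library.

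The 2 highest Grm4 values belonged to Control libraries 3 and 5, the 2 libraries with the least mitochondrial mRNA. Without both, the log2 fold change of Grm4 was -0.19 with an unadjusted limma p of 0.0801. With mitochondrial mRNA as a covariate it was -0.19 with an unadjusted limma p of 0.0579. The median of all genes stood at 0.05 in the comparison of all libraries, at -0.09 without those 2 libraries and at -0.11 with the covariate, so that Grm4 lay closer to the typical gene in both of these settings than with all libraries. The sign was negative in all 23 alternatives, while its size depended on these 2 Control libraries.

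**Figure D4:**
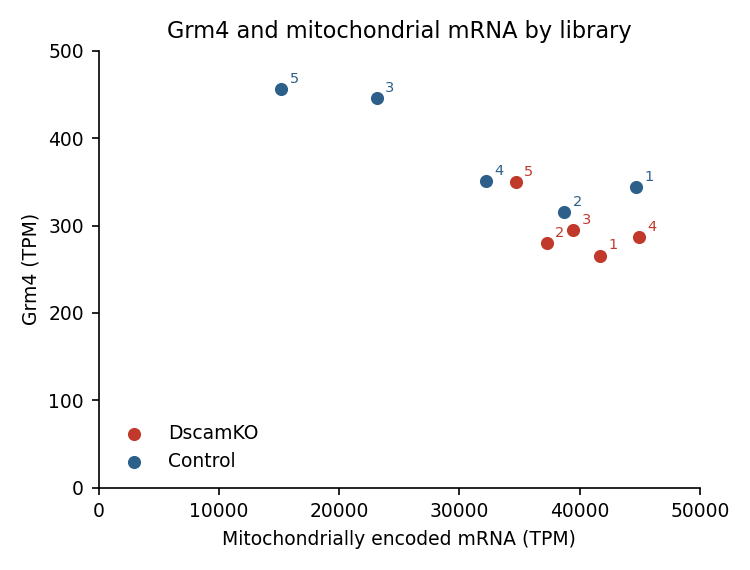
Grm4 level in TPM against the summed level of 13 mitochondrially encoded mRNAs in TPM, 1 point per library with its number, DscamKO in red and Control in blue. Control libraries 5 and 3 lie at the upper left, with 15206 and 23124 TPM of mitochondrial mRNA, and the other 8 libraries lie together at 32199 TPM or more.

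Granule cells, the main cells of Grm4, were followed with 6 markers, none of which was at 0. Of these, 5 were below 0 and 1 above, with a median log2 fold change of -0.07. Without Control libraries 3 and 5 all 6 were below 0 (median -0.26), as they were with the mitochondrial covariate (median -0.25). The median of all genes was -0.09 and -0.11 in these settings. The transcription factor Neurod1 and the protocadherin Fat2, which granule cells express, had unadjusted limma p-values of 0.00731 and 0.00167 and groups that did not overlap, beside 3.26% of all genes that were lower at an unadjusted p under 0.05 and 1.22% whose groups did not overlap. Neurod1 averaged 303.6 TPM in DscamKO and 361.3 TPM in Control, and Fat2 averaged 106.1 TPM in DscamKO and 136.7 TPM in Control. Gabra6, the GABA-A receptor subunit that marks mature granule cells, averaged 471.4 TPM in DscamKO and 434.8 TPM in Control (log2 fold change 0.20), with 297.3 and 238.0 TPM in Control libraries 3 and 5 and 439.9 to 634.5 TPM in the other Control libraries. Without those 2 libraries the log2 fold change of Gabra6 was -0.20.

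Set against the geometric mean of the 6 markers, the level of Grm4 was 0.946 to 1.24 in DscamKO and 1.01 to 2.05 in Control. Control libraries 3 (1.80) and 5 (2.05) stood alone at the top of this ratio, and the other 3 Control libraries, at 1.01 to 1.11, lay inside the DscamKO range. Relative to Fat2, a marker picked after the values were seen, Grm4 was at 2.70 to 3.004 in DscamKO and at 2.26 to 3.65 in Control. The same 2 libraries were highest, and the other 3 Control libraries, at 2.26 to 2.43, lay below every DscamKO library. For the other markers taken singly, these 3 Control libraries were not all below the DscamKO libraries. The part of granule cell RNA and of these libraries in the Grm4 difference was not tested further.

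Grm7 (chr6:110645581-111567230, plus strand) encodes mGluR7, a presynaptic receptor of low glutamate affinity placed at the release site. Its level was 7.59, 4.82, 10.3, 4.05 and 6.31 TPM in DscamKO libraries 1 to 5, against 8.22, 4.78, 6.87, 3.65 and 1.43 TPM in Control libraries 1 to 5. DscamKO library 3 was the highest and Control library 5 the lowest, and the other libraries were mixed. Means were 6.61 ± 2.47 TPM in DscamKO and 4.99 ± 2.67 TPM in Control (SD, n = 5 each). The log2 fold change was 0.54 (SE 0.44, 95% interval -0.44 to 1.51) with a limma adjusted p of 0.790. It was 0.16 without Control library 5 and 0.05 with mitochondrial mRNA as a covariate. The median of all genes was -0.04 and -0.11 in these settings, against 0.05 with all libraries and no covariate.

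Grm7 varied more between mice than the other receptors tested. Its residual SD was 0.77 on the log2 scale, above that of 74.7% of all genes, against 0.30 for Grm2, 0.27 for Grm3 and 0.20 for Grm4. An antisense gene, Gm20387, shares 130 bases of exon with Grm7 and was listed at 0 to 0.964 TPM, and as the strand setting of the quantification is not given, reads of that stretch cannot be told apart. With Grm6 counted in, the summed level of group III was 274.0 to 356.6 TPM in DscamKO and 320.5 to 457.9 TPM in Control, nearly all of it Grm4. Without Grm4 this sum was 4.34 to 10.6 TPM in DscamKO and 1.63 to 8.46 TPM in Control.

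Grm8 (chr6:27275119-28135178, minus strand) encodes mGluR8, a presynaptic group III receptor of high glutamate affinity. Its level was 0.775, 0.179, 0.309, 0.293 and 0.252 TPM in DscamKO libraries 1 to 5, against 0.243, 0.252, 0.209, 0.271 and 0.201 TPM in Control libraries 1 to 5. DscamKO library 1 was far above all others, DscamKO libraries 1, 3 and 4 were above every Control library, and DscamKO library 2 was the lowest of all. The difference of the mean log2(TPM + 0.1) values was 0.35 (two-sided exact permutation p = 0.246). It was 0.09 without DscamKO library 1 and 0.50 without DscamKO library 2, where the exact permutation p was 0.0159. That run left out the lowest value of all. The other runs without 1 library had exact permutation p-values of 0.190 to 0.508. DscamKO library 1 also had the highest summed level of the 6 brainstem, midbrain and cerebellar nuclei markers (20.4 TPM), most of it Slc17a6, a vesicular glutamate transporter, at 14.1 TPM. Tph2 was also highest of all libraries in DscamKO library 1 (1.28 TPM). The other markers did not all follow. Th was at 4.28 TPM in DscamKO library 1 and was highest in DscamKO library 3 (4.50 TPM). Dbh was lowest among DscamKO libraries in library 1 (0.685 TPM, others 0.934 to 1.45 TPM). The part of such neurons in the Grm8 level was not tested.

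Partners of the receptors were read from 40 genes in 5 lists. Of the 37 tested, 0 passed the threshold in limma (smallest adjusted p 0.779), 0 were higher and 3 were lower in DscamKO at an unadjusted p under 0.05 (beside 2.29% higher and 3.26% lower over all genes), and 16 lay above and 21 below 0. Their median log2 fold change was -0.05, against 0.05 over all genes tested.

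Of the 7 G protein alpha subunits that carry the receptor signal, 0 had an unadjusted p under 0.05, 5 were below 0 and the median was -0.17. Gnao1, the most abundant subunit of brain, was at 223.2 ± 59.0 TPM in DscamKO and 254.4 ± 9.89 TPM in Control, with DscamKO library 1 the highest of all at 314.3 TPM. Gnai2, an inhibitory subunit, was at 142.2 ± 13.9 TPM in DscamKO and 163.6 ± 22.7 TPM in Control. Gna11, a Gq-type subunit, was at 51.6 ± 3.30 TPM in DscamKO and 58.3 ± 6.31 TPM in Control (SD, n = 5 each).

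Of the 12 proteins that bind the receptor tails or hold them in a scaffold, 11 were tested, with 3 above and 8 below 0 and a median of -0.08. Pick1, which binds the tail of mGluR7, was 1 of the 3 genes with an unadjusted p under 0.05. It averaged 33.3 ± 3.89 TPM in DscamKO and 42.1 ± 7.59 TPM in Control, a log2 fold change of -0.33 with a limma adjusted p of 0.779. Shank3, a postsynaptic scaffold, had a log2 fold change of -0.31 and an unadjusted limma p of 0.0571, and -0.20 without Control libraries 3 and 5. The most abundant members were Homer3, the Homer protein of Purkinje cells, at 388.7 ± 31.0 TPM in DscamKO and 410.7 ± 67.1 TPM in Control, and Ncdn (neurochondrin) at 340.7 ± 26.9 TPM in DscamKO and 368.3 ± 43.3 TPM in Control.

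Both genes with the widest fold changes of this list were named after their values were seen. Homer1, whose protein links group I receptors to calcium stores, was at 5.01 to 14.7 TPM in DscamKO, and in Control at 9.79 to 15.6 TPM in 3 libraries but at 0.739 and 0.666 TPM in libraries 3 and 5. Frmpd4, another scaffold protein, was at 5.998 to 7.98 TPM in DscamKO, and in Control at 5.36 to 10.2 TPM in 3 libraries but at 0.554 and 0.294 TPM in libraries 2 and 5. Their log2 fold changes, 1.32 for Homer1 and 1.39 for Frmpd4, went with those Control libraries, and the groups otherwise overlapped.

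**Figure D5:**
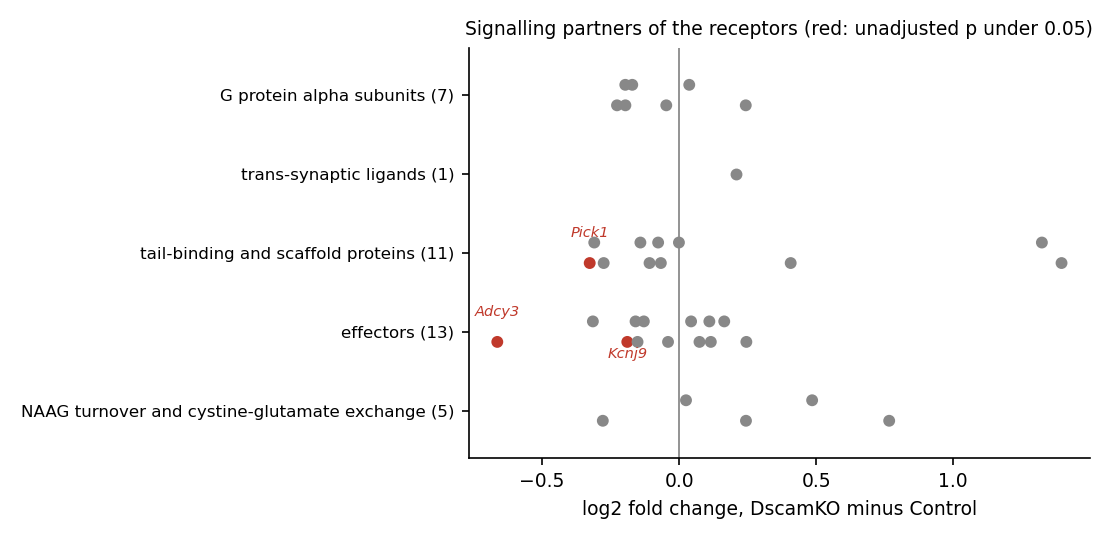
Log2 fold change of each partner gene tested, DscamKO minus Control, by list with the number tested in brackets; red points have an unadjusted limma p under 0.05 and none passed the threshold. The 3 red genes, Pick1, Adcy3 and Kcnj9, lie below 0, and the 2 points at the far right of the scaffold list are Homer1 and Frmpd4.

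Of the 13 effectors, 6 were above and 7 below 0, with a median of -0.04, and 2 were lower at an unadjusted p under 0.05, beside 3.26% of all genes. Without Control libraries 3 and 5 the effectors had 2 above and 11 below 0 with a median of -0.14, where the median of all genes was -0.09. Adcy3, an adenylyl cyclase, was at 4.61, 5.75, 4.99, 6.85 and 4.92 TPM in DscamKO libraries 1 to 5, against 9.28, 10.95, 10.5, 10.4 and 4.11 TPM in Control libraries 1 to 5. All DscamKO libraries were below Control libraries 1 to 4, and Control library 5 was the lowest of all (log2 fold change -0.66, limma adjusted p = 0.779). Without both Control libraries 3 and 5 it was -0.91, with an adjusted p of 0.830. Kcnj9, a subunit of the potassium channels opened by Gi/o-coupled receptors, averaged 100.2 ± 2.83 TPM in DscamKO and 114.6 ± 9.48 TPM in Control (log2 fold change -0.19, two-sided exact permutation p = 0.0238). Without Control libraries 3 and 5 the log2 fold change of Kcnj9 was -0.14 and its unadjusted limma p was 0.142. The most abundant effectors did not pass the threshold either: Itpr1, the calcium release channel of Purkinje cells, was at 339.2 ± 32.7 TPM in DscamKO and 327.5 ± 69.8 TPM in Control, and Adcy1, a calmodulin-stimulated cyclase, was at 314.2 ± 12.5 TPM in DscamKO and 351.4 ± 47.5 TPM in Control.

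Genes of NAAG turnover and of cystine-glutamate exchange, which set the ambient agonists of group II receptors, had 4 members above and 1 below 0 of 5 tested, with a median of 0.24 and 0 at an unadjusted p under 0.05. This turned round without Control libraries 3 and 5 (1 above and 4 below 0, median -0.17) and with the mitochondrial covariate (1 above and 4 below 0, median -0.17), so no direction is given for the list. Rimklb, a NAAG synthase, averaged 7.99 ± 1.24 TPM in DscamKO and 5.19 ± 2.48 TPM in Control (log2 fold change 0.77, two-sided exact permutation p = 0.0635). Control libraries 3 and 5 were its lowest, at 3.69 and 1.80 TPM, and without them the log2 fold change of Rimklb was 0.22. Rimkla, the other NAAG synthase, was at 19.9 ± 3.04 TPM in DscamKO and 20.1 ± 5.22 TPM in Control. Slc3a2, the heavy chain of the exchanger, was at 129.5 ± 20.6 TPM in DscamKO and 158.2 ± 32.0 TPM in Control (SD, n = 5 each).

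The ELFN proteins recruit group III receptors across the synapse. Elfn2 averaged 8.40 ± 1.42 TPM in DscamKO and 7.27 ± 1.26 TPM in Control, with a log2 fold change of 0.21 and a limma adjusted p of 0.817. Elfn1 did not pass the filter on low values, at 0.0597 to 0.127 TPM in DscamKO and 0.0201 to 0.0623 TPM in Control (two-sided exact permutation p = 0.0238), and the number of reads behind such levels is unknown.

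The genes whose pattern was most like that of each receptor were found by Pearson correlation of log2 values over 10 libraries, after the genotype means were taken off, and 12807 protein-coding genes averaging 1 TPM or more were compared. As the best of so many genes these values are a description. For Grm4 they were Rpl36 (r = 0.95, Spearman rho = 0.87) and Zfp579 (r = 0.93, rho = 0.88), and for Grm7 they were Mob2 (r = 0.96, rho = 0.87) and Ints13 (r = 0.94, rho = 0.90). For Grm2 they were Plpp1 (r = 0.95, rho = 0.93) and Hist2h2ac (r = 0.94, rho = 0.90), where r was 0.83 and 0.76 without the 2 libraries farthest from the median of Grm2. For Grm3 they were Scaper (r = 0.95, rho = 0.94) and Plekha7 (r = 0.95, rho = 0.88). All of these genes were read in the same 10 libraries, so differences between libraries in composition enter each value.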

How the data were processed

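The authors deposited 1 table of TPM values per library; per the labels their notes name HISAT2, StringTie, HTSeq, DESeq2 and the GRCm38.p5 build, the RNA being sequenced from directional libraries. TPM keeps no depth, so sequencing depth is unknown here and counting intervals are not given. The annotation release and the strand setting are not given in the sources used here. Gene symbols and coordinates came from GENCODE M21 on GRCm38 (105 IDs had no symbol). Groups came from the genotype label, 1 mouse per library, and no libraries were identical.

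Values were tested as log2(TPM + 0.1) with limma 3.58.1 in R 4.3.3 (variance trend, DscamKO against Control, no block) over the 17168 genes at 0.5 TPM or more in at least 5 libraries, with Benjamini-Hochberg adjustment and a threshold of 0.05. Fold changes on this scale understate those of low genes. Exact permutation tests were two-sided, over 252 divisions of all 10 libraries (smallest p 0.0079) and over fewer divisions where libraries were left out. The procedure was tested on simulated data. The 23 alternatives changed the pseudocount (1 or 0.01), filter, scaling, variance trend, weights, covariate or block, or left out libraries.

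The text names the 6 receptors, Grm6 and Dscam, for each partner list the 2 lowest p-values and the 2 highest means, the 2 genes most like each receptor, and markers as lists, with single markers picked after their values were seen. The members and lists were chosen with earlier results of these data known. Protein and promoter sequences were not used here, and a further gene that the rule names is not reported here.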

Additional observations from a re-analysis of the deposited data

Results flagged for a closer look

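Single libraries stood far from the rest of their group in 5 of the 48 groups of 5 looked at. Chance alone gives about 2.4 where values are normally distributed, which TPM values need not be. Grm5 was at 0.647 TPM in DscamKO library 4, with the next DscamKO library at 0.172 TPM. Grm5 was also at 1.70 TPM in Control library 4, with the next Control library at 0.426 TPM. Grm8 was at 0.775 TPM in DscamKO library 1, with the next DscamKO library at 0.309 TPM. Itpr1 was at 282.6 TPM in DscamKO library 4, under the next lowest DscamKO library at 341.4 TPM. Adcy3 was at 4.11 TPM in Control library 5, under the next lowest Control library at 9.28 TPM.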

How the results depend on the processing

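The count of receptor genes past the threshold was 0 in all 23 alternatives. The count over all genes was 4 with no variance trend and 0 to 1 when single libraries were left out, with 1 called without DscamKO library 4. Grm2 was below 0 and Grm7 above 0 in all 23 alternatives, and neither passed the threshold in any. Grm4 ranged from -0.43 without Control library 2 to -0.19 with mitochondrial mRNA as a covariate (adjusted p 0.493 to 0.918). Grm3 changed sign under quantile normalization (-0.021), with the mitochondrial covariate (-0.050) and without Control libraries 3 and 5 together (-0.052), and ranged from -0.027 to 0.158 when single libraries were left out. Grm5 and Grm8 entered limma only with no filter on low values (Grm5 -0.21, adjusted p 0.9504; Grm8 0.35, adjusted p 0.833). For them 16 alternatives gave a value, and the stricter filter, trend, weights, covariate, quantile, block and protein-coding settings gave none because both genes are under the filter there. Leaving out single libraries gave -0.537 to 0.389 for Grm5, above 0 only without Control library 4 (and -1.07 without Control libraries 3 and 5 together), and 0.085 to 0.497 for Grm8. The cause of these shifts was not tested. With the replicate block, 0 genes were called and the log2 fold change of Grm4 was -0.36 (adjusted p 0.717). Libraries of the same number correlated by 0.0079 to 0.0978 in their deviations, and 2 of 5 DscamKO libraries correlated best with their own number, so the numbers were not taken as pairs. TPM gives no depth, so the precision of Grm5, Grm8 and Elfn1 at under 1 TPM could not be set.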
